A study of Mus musculus with 4 samples.

Results

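The colony-stimulating factors are secreted cytokines that sustain and mature myeloid cells, and 7 genes of this family were followed here out of 31053 genes counted: the ligands Csf1 (M-CSF) and Csf2 (GM-CSF), and the receptor chains Csf1r, Csf2ra, Csf2rb, Csf2rb2 and Csf3r. They were taken by name, with no cut on their values, and with earlier results of these data known. The single-cell libraries held live CD45+ cells, that is leukocytes sorted by a surface marker, from lungs or lung tumors of C57BL/6 mice. The 4 groups were tumors of Rab37 KO mice, tumors of WT mice, normal lung of Rab37 KO mice and normal lung of WT mice, all taken at day 14, with 1 library each. The tumors had been started with LLC cells, a carcinoma line from mouse lung, and normal lung came from mice given Matrigel without tumor cells. Rab37 is a small GTPase that directs vesicle traffic. The sources used here do not say how the Rab37 allele was made or how many mice went into a library. With 1 library per group there is no spread between replicates to judge a difference by, and no test was made.

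M-CSF binds Csf1r, a receptor tyrosine kinase on which most tissue macrophages depend. GM-CSF binds an alpha chain, Csf2ra, which pairs with the common beta chain, Csf2rb, and signals through Jak2 and Stat5. In lung, GM-CSF is known for the upkeep of alveolar macrophages. G-CSF, the product of Csf3, binds Csf3r and drives the formation of neutrophils.

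After filtering, the tumor Rab37 KO, tumor WT, normal Rab37 KO and normal WT libraries held 2725, 644, 4646 and 5063 cells, with median depths of 6556, 3979, 5486 and 5053 UMIs (unique molecular identifiers, each marking 1 captured transcript). Rab37 itself had 8, 24, 13 and 292 UMIs, or 0.266, 4.63, 0.385 and 8.50 CPM (UMIs of the gene per 1000000 UMIs), so it was lower in both libraries labelled Rab37 KO; where the 3′ counts lie relative to the deleted stretch is not stated. Cells with Xist and no Y-linked transcript numbered 33, 417, 1543 and 2020, and cells with a Y-linked transcript and no Xist 1662, 0, 1614 and 1481. In tumors, sex and genotype therefore cannot be told apart. No pair of libraries shared more than 8 cell barcodes. Cell classes were rebuilt by clustering without the 7 genes and named from other markers, hence the ending "-like". Of the naming markers, at most 1 missed 10 CPM in each class and library with at least 20 cells, except in cDC2-like cells, where 9, 8 and 9 of 11 reached it in tumor Rab37 KO, normal Rab37 KO and normal WT and 1 was at 0 in both normal libraries. Of the 10 ILC2-like markers 1 was at 0 in both normal libraries.

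Levels are CPM of a class, its cells in 1 library summed, with exact Poisson 95% intervals, and ratios carry exact conditional binomial 95% intervals. Both cover counting error only. A 3′ count is not scaled by gene length, so levels are compared within a gene and not between genes. A gene in a class counted as measured with at least 20 cells in each library and 20 UMIs over both, and as higher or lower at 1.5-fold.

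The stretches of DNA before the RefSeq start sites of 4 genes are shown as examples of a ligand found mainly in type 2 innate lymphoid cells (Csf2), a receptor highest in neutrophils (Csf3r) and receptor chains spread over myeloid cells (Csf2ra and Csf2rb2). Those of Csf1, Csf1r and Csf2rb are not shown. They are RefSeq sequence of GRCm38.p6, 5′ to 3′ on the strand of the gene. They lie at chr11:54249900-54250149 (minus strand) for Csf2, chr4:126024409-126024579 (plus) for Csf3r, chr19:61228419-61228668 (minus) for Csf2ra and chr15:78305722-78305971 (minus) for Csf2rb2. Of the 250 bases searched for each gene, 171 are printed for Csf3r. The last 30 of these, and the last 11 bases of the Csf2ra stretch, lie inside the gene as GENCODE draws it. The Csf2 stretch stops at 54249900, short of the GENCODE start at 54249667, and the bases between were neither printed nor searched. Capitals mark matches on either strand to the motif cores GAGGAA (bound by PU.1), TTGCNNAA (C/EBP), AGATAA (bound by Gata3 and its relatives) and TGANTCA (AP-1).
Csf2: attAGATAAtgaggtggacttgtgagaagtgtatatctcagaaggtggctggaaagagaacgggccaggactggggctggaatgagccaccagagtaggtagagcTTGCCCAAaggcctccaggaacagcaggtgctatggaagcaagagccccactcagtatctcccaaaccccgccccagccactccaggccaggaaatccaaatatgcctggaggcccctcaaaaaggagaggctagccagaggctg
Csf3r: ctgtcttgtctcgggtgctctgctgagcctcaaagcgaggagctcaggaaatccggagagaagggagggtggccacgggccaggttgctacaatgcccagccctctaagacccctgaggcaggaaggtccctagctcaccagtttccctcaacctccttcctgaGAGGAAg
Csf2ra: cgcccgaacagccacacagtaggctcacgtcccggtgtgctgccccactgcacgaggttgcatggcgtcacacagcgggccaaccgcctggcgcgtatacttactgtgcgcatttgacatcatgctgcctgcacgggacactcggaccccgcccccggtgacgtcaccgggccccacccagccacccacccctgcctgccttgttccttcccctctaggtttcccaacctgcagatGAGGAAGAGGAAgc
Csf2rb2: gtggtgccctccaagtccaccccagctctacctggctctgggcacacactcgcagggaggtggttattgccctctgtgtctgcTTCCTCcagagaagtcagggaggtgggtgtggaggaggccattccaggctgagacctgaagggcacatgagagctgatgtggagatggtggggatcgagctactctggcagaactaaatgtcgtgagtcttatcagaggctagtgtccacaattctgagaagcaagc
The Csf2 stretch held 1 AGATAA and 1 match to TTGCNNAA. Csf3r held 1 GAGGAA, inside the GENCODE gene. Csf2ra held 2 side by side, the last inside the GENCODE gene and the other across its edge. Csf2rb2 held 1 on the other strand, read as TTCCTC. The 250 bases searched before Csf1 held none of the 4 motifs. Over 32817 RefSeq promoters and the same 250 bases, 23.3% held GAGGAA, 9.57% TTGCNNAA, 9.99% AGATAA and 6.75% TGANTCA, so such matches are common, and they describe letters only.

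Among the sorted cells, Csf1, the ligand of Csf1r, was highest in neutrophil-like cells, not in macrophage-like ones or stromal ones of normal lung. The gene (ENSMUSG00000014599) lies at chr3:107741048-107760469 on the minus strand in the mm10 annotation. Neutrophil-like cells, which carry S100a8, S100a9 and Retnlg, had the highest Csf1 level of all classes with at least 20 cells in each of the 4 libraries. The levels were 123 CPM (115 to 130) in the tumor Rab37 KO library, 324 CPM (280 to 374) in tumor WT, 559 CPM (522 to 597) in normal Rab37 KO and 467 CPM (424 to 514) in normal WT. No pair of these intervals overlapped, and both tumor libraries lay under both normal ones. With every cell thinned to 1500 UMIs, 13.2%, 27.1%, 41.9% and 32.7% of neutrophil-like cells held a Csf1 UMI, against 0%, 0%, 0.234% and 0.290% of T-like cells, a class taken as the background of free RNA (upper limits of both 0% values, 5.28% and 8.41%). Median depths before thinning were 3610, 2133, 2614 and 2236 UMIs for neutrophil-like and 5151, 3562, 5479 and 4670 UMIs for T-like cells.

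Neutrophil-like cells held 61.8%, 71.2%, 62.2% and 49.0% of all Csf1 UMIs in the tumor Rab37 KO, tumor WT, normal Rab37 KO and normal WT libraries, out of 1660, 264, 1427 and 870. They made up 50.3%, 32.5%, 12.1% and 7.56% of the cells. In normal lung the class was thus a small share of the sorted cells and the main holder of the transcript among them. Fibroblast-like cells, present despite the CD45 sort, came next in normal lung with 205 CPM in Rab37 KO and 174 CPM in WT, and held 10.7% and 7.13% of the UMIs. Endothelial-like cells had 56.5 CPM in Rab37 KO and 61.8 CPM in WT.

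**Figure D1:**
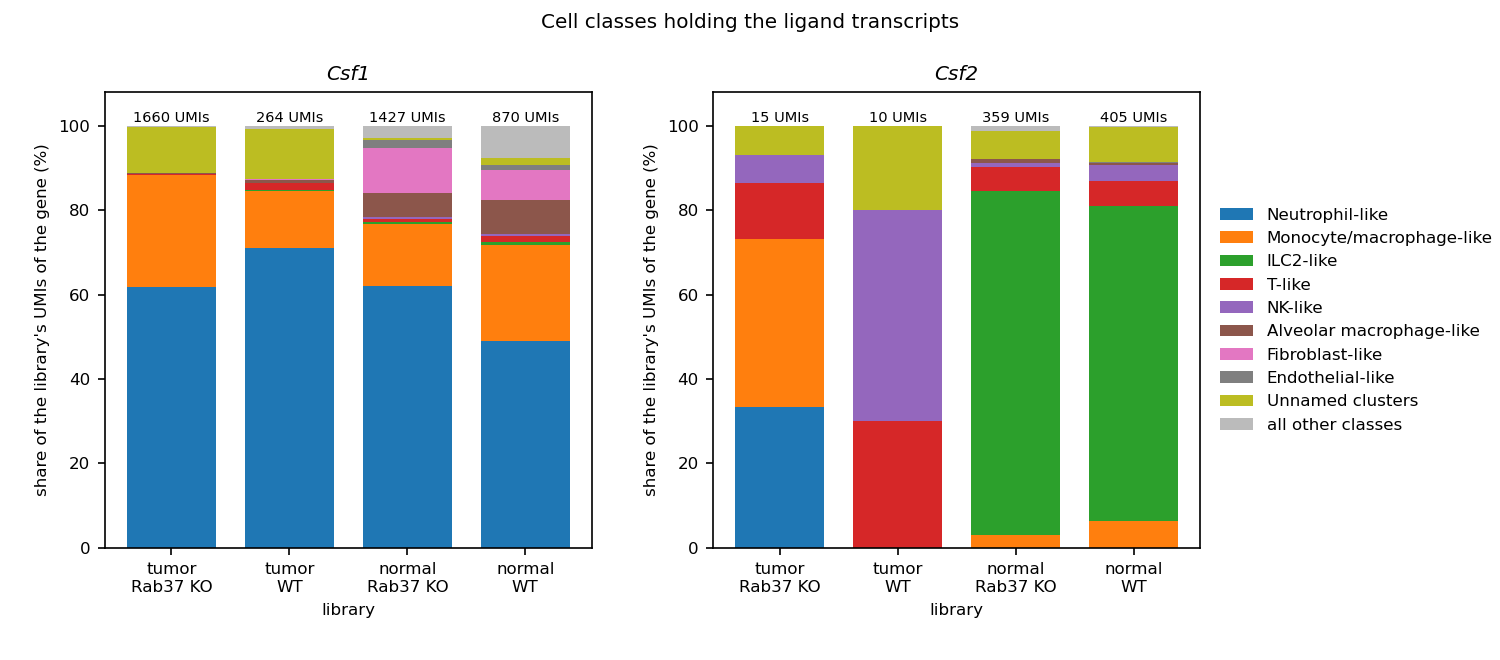
Share of each library's Csf1 (left) and Csf2 (right) UMIs held by each cell class, in percent, with the total UMIs above each bar. Neutrophil-like cells hold 61.8%, 71.2%, 62.2% and 49.0% of Csf1 from left to right, and ILC2-like cells hold 81.6% and 74.6% of Csf2 in the normal Rab37 KO and normal WT libraries, while the tumor libraries have 15 and 10 Csf2 UMIs in all.

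Monocyte/macrophage-like cells had 35.8, 13, 52.4 and 48.4 CPM of Csf1 in the tumor Rab37 KO, tumor WT, normal Rab37 KO and normal WT libraries. These values did not follow neutrophil RNA over the 4 libraries, but they fell once cells holding it were left out. A cell was said to hold neutrophil RNA where at least 1% of its UMIs came from the 9 genes S100a8, S100a9, Retnlg, Cxcr2, G0s2, Mmp9, Il1r2, Mmp8 and Hdc, and 37.5%, 13.2%, 19.5% and 18.9% of monocyte/macrophage-like cells did. Of the 9 genes, all 9 had UMIs in this class in every library, and their summed level was 19993, 8927, 10795 and 7566 CPM, against 138551 to 167332 CPM in neutrophil-like cells. Without the cells holding neutrophil RNA, Csf1 stood at 16.1, 10.2, 9.39 and 10.3 CPM. In the classical monocyte-like cluster led by Plac8, Ms4a4c and Ms4a6c it had 0, 1, 3 and 2 UMIs, and in the nonclassical monocyte-like cluster of normal lung in which 94.2% (Rab37 KO) and 96.5% (WT) of cells held neutrophil RNA it had 283 and 255 CPM. The part of neutrophil RNA in the class levels of Csf1 was not tested beyond these values.

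**Figure D2:**
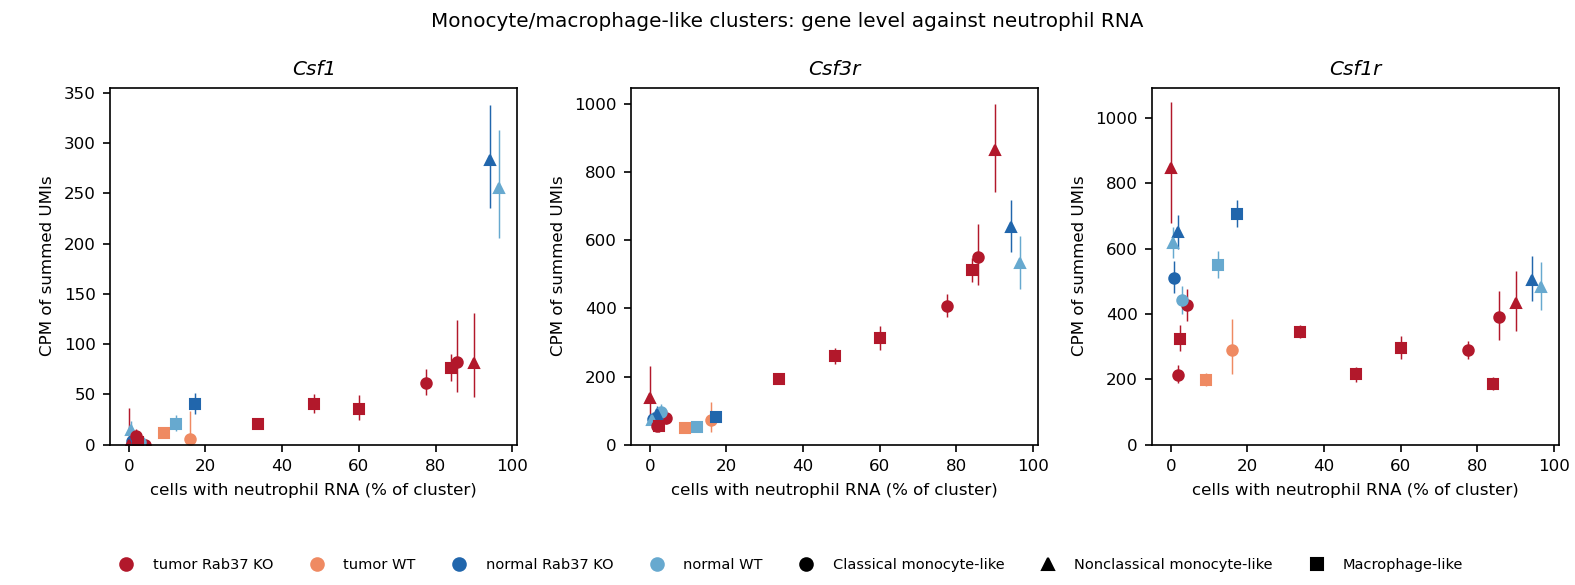
Level of Csf1, Csf3r and Csf1r (CPM with Poisson 95% intervals) in each monocyte/macrophage-like cluster and library with at least 20 cells, against the percent of its cells that hold neutrophil RNA. Csf1 reaches 283 CPM and Csf3r 865 CPM only in clusters where most cells hold neutrophil RNA, while the highest Csf1r level, 848 CPM, is in a cluster with 0% of such cells.

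Csf2, which encodes GM-CSF, was found mainly in one rare class of normal lung. The gene (ENSMUSG00000018916) lies at chr11:54247271-54249667 on the minus strand. ILC2-like cells, group 2 innate lymphoid cells known to secrete IL-5 and IL-13, had 1139 CPM (1013 to 1278) in normal Rab37 KO and 1627 CPM (1448 to 1821) in normal WT lung. Only 51 and 38 cells carried this label, 1.10% and 0.751% of their libraries. They held 293 of 359 Csf2 UMIs (81.6%) in normal Rab37 KO and 302 of 405 (74.6%) in normal WT. After thinning, 36.0% and 34.2% of them held a Csf2 UMI, and B-like cells, with medians of 3880 and 3348 UMIs, had none in any library. No single cell carried the class: the largest held 69 UMIs in Rab37 KO and 56 in WT.

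The other named lymphoid classes, taken whole, held little Csf2. T-like cells had 4.12, 12.8, 2.54 and 3.41 CPM in the tumor Rab37 KO, tumor WT, normal Rab37 KO and normal WT libraries. NK-like cells had 3.57, 44.9, 2.78 and 10.6 CPM, where the tumor WT value came from 5 UMIs in 1 cell. The tumor libraries held 15 (Rab37 KO) and 10 (WT) Csf2 UMIs in total, and no more than 1 ILC2-like cell: 0 of 2725 cells in Rab37 KO, a count that allows a share of up to 0.110%, and 1 of 644 in WT. In the tumor Rab37 KO library 5 of the 15 UMIs lay in 1 neutrophil-like cell and 6 in monocyte/macrophage-like cells. At this depth a main source of Csf2 among CD45+ tumor cells could not be told. In normal WT lung 26 UMIs lay in monocyte/macrophage-like cells, 17 of them in 1 cell.

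Between genotypes, Csf2 in ILC2-like cells of normal lung was 0.700 times as high in Rab37 KO as in WT (0.594 to 0.825), which did not reach 1.5-fold. Il5, another ILC2 cytokine and a naming marker of the class, had 1680 CPM in Rab37 KO and 1810 CPM in WT.

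**Figure D3:**
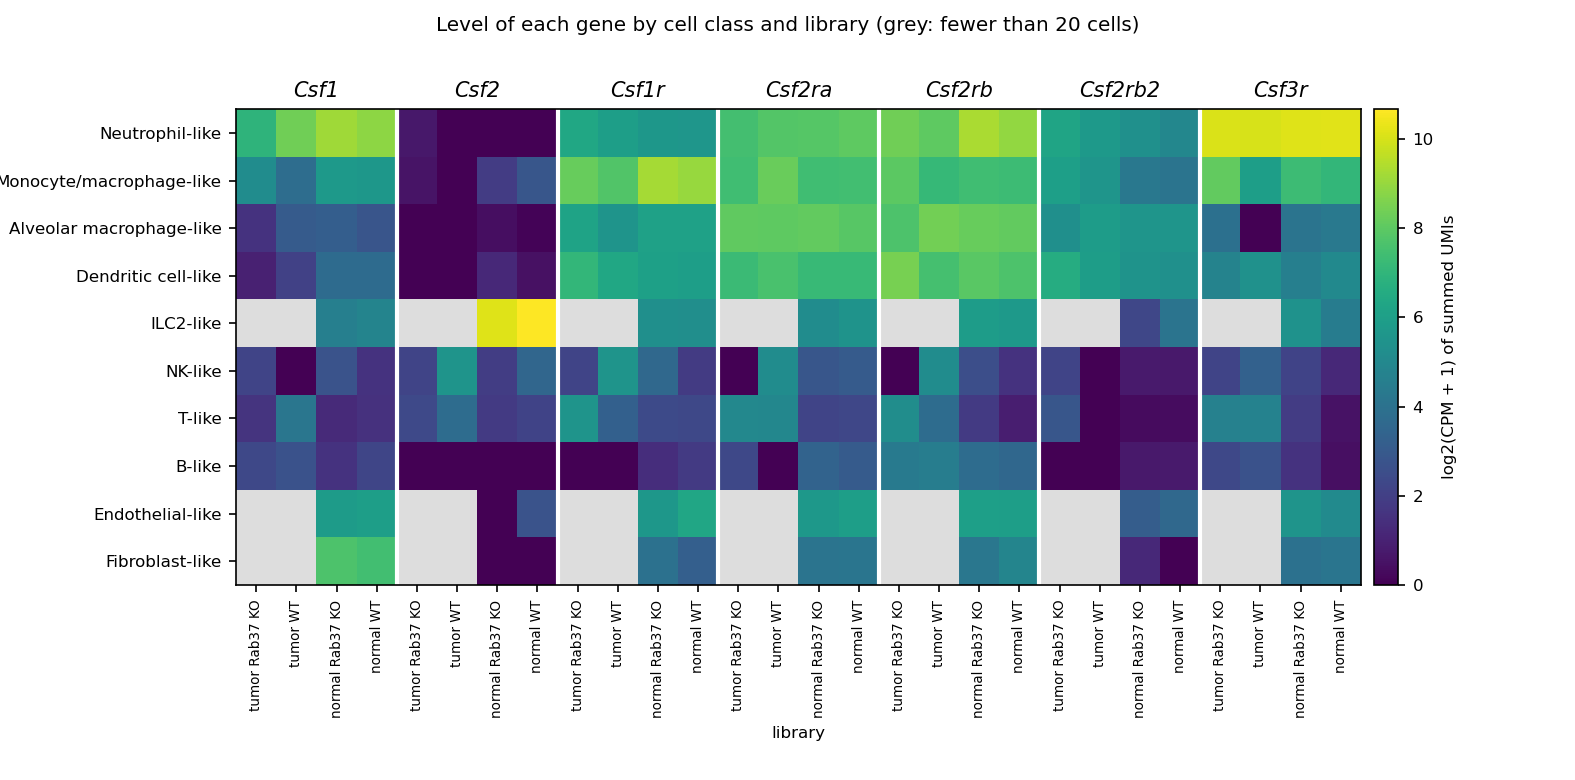
Level of the 7 genes as log2(CPM + 1), by cell class (rows) and library (columns within each gene), with grey where a class had fewer than 20 cells. Csf3r is brightest in the neutrophil-like row, at 1039 to 1183 CPM, Csf1r in the monocyte/macrophage-like row, at 220 to 606 CPM, and Csf2 in the ILC2-like row of normal lung, at 1139 and 1627 CPM.

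Csf1r, the M-CSF receptor, was highest in monocyte/macrophage-like cells, the class of its best known function. The gene (ENSMUSG00000024621) lies at chr18:61100598-61132149 on the plus strand. Monocyte/macrophage-like cells led in each library, with 292 CPM (282 to 301) in tumor Rab37 KO, 220 CPM (203 to 239) in tumor WT, 606 CPM (582 to 631) in normal Rab37 KO and 524 CPM (502 to 546) in normal WT. They held 76.2%, 85.8%, 69.2% and 63.1% of the Csf1r UMIs. Dendritic cell-like cells had 134, 81.7, 65.4 and 61.7 CPM, alveolar macrophage-like cells 71.0, 44.4, 68.5 and 67.1 CPM, and neutrophil-like cells 80.9, 62.1, 49.1 and 47.2 CPM. In normal lung the intervals of the dendritic cell-like and alveolar macrophage-like classes overlapped, as did those of endothelial-like cells with both, at 48.7 CPM in Rab37 KO and 78.6 CPM in WT. B-like cells were at 0, 0, 1.64 and 2.54 CPM of Csf1r. The class with the most Csf1r was therefore not the one with the most Csf1.

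Csf3r, the G-CSF receptor, was highest in neutrophil-like cells in each library, at levels that varied little. The gene (ENSMUSG00000028859) lies at chr4:126024550-126044440 on the plus strand. Neutrophil-like cells had 1062 CPM (1040 to 1084) in tumor Rab37 KO, 1039 CPM (958 to 1125) in tumor WT, 1142 CPM (1090 to 1196) in normal Rab37 KO and 1183 CPM (1113 to 1256) in normal WT. After thinning 72.8%, 73.5%, 79.2% and 83.0% of them held a UMI. Within the class it was not even: tumor Rab37 KO cells of the cluster led by Camp, Ngp and Ltf, granule genes of immature neutrophils, had 573 CPM, and those of the cluster led by Ifitm1, Lrg1 and Wfdc17 had 1739 CPM. Csf1 was low in the same Camp cluster, at 15.3 CPM.

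Outside neutrophil-like cells, Csf3r was next highest in monocyte/macrophage-like cells, at 275, 62.9, 159 and 134 CPM in the tumor Rab37 KO, tumor WT, normal Rab37 KO and normal WT libraries. Without cells holding neutrophil RNA the levels were 90.5, 36.2, 63.8 and 64.3 CPM. A level remained in monocytes with little neutrophil RNA: the Plac8 cluster, where 4.35%, 16.0%, 0.885% and 2.84% of cells held it, had 78.5, 71.4, 76.3 and 96.3 CPM of Csf3r, and the intervals of all 4 libraries overlapped. Alveolar macrophage-like cells had 14.2, 0, 16.2 and 18.7 CPM, where the 0 UMIs of 25 tumor WT cells have an upper Poisson limit of 13.7 CPM. B-like cells had 3.99, 5.47, 1.97 and 0.363 CPM.

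Csf2ra, the GM-CSF-binding alpha chain, was spread over all 4 myeloid classes. The gene (ENSMUSG00000059326) lies at chr19:61223957-61228429 on the minus strand. Alveolar macrophage-like cells had 264, 256, 272 and 236 CPM in the tumor Rab37 KO, tumor WT, normal Rab37 KO and normal WT libraries, the narrowest range of the 4 classes. Neutrophil-like cells had 179, 224, 229 and 261 CPM, and dendritic cell-like cells 154, 195, 144 and 145 CPM. Monocyte/macrophage-like cells had 166, 302, 167 and 173 CPM, with the tumor WT library apart from the others. B-like cells had 3.99, 0, 9.54 and 7.27 CPM and T-like cells 30.9, 29.9, 3.56 and 3.84 CPM, so the tumor T-like cells, 73 and 43 in number, carried more of it than those of normal lung. Neutrophil RNA was held by 4.11%, 2.33%, 0.233% and 0% of T-like cells, and its part in this was not tested.

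Csf2rb, the beta chain shared by the receptors for GM-CSF, IL-3 and IL-5, lies at chr15:78325752-78353847 on the plus strand (ENSMUSG00000071713). Neutrophil-like cells had 328, 262, 627 and 487 CPM, dendritic cell-like cells 357, 185, 242 and 206 CPM, alveolar macrophage-like cells 208, 337, 291 and 274 CPM, and monocyte/macrophage-like cells 255, 141, 169 and 158 CPM. Within the dendritic class, cDC2-like cells stood at 454, 408 and 333 CPM in tumor Rab37 KO, normal Rab37 KO and normal WT, and had fewer than 20 cells in tumor WT. T-like cells had 37.0, 12.8, 2.54 and 0.854 CPM.

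Csf2rb2 encodes the beta chain that in mouse serves IL-3, and lies beside Csf2rb at chr15:78282507-78305721 on the minus strand (ENSMUSG00000071714). The genes are near-identical copies, and the counting may have split or dropped shared reads, so the balance between them is uncertain. Dendritic cell-like cells had 95.6, 59.7, 44.2 and 39.7 CPM in the tumor Rab37 KO, tumor WT, normal Rab37 KO and normal WT libraries. Neutrophil-like cells had 73.3, 53.5, 40.3 and 29.6 CPM, monocyte/macrophage-like cells 63.9, 46.9, 18.4 and 16.1 CPM, and alveolar macrophage-like cells 39.0, 59.3, 46.5 and 46.1 CPM. In the first 3 of these classes both tumor levels lay above both normal ones, as they did in no class of those 4 for Csf2rb.

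GM-CSF signals through Csf2ra and Csf2rb together. After thinning to 1500 UMIs, Csf2ra was seen in 22.9%, 31.3%, 31.1% and 27.4% and Csf2rb in 35.7%, 31.3%, 51.7% and 46.1% of neutrophil-like cells in the tumor Rab37 KO, tumor WT, normal Rab37 KO and normal WT libraries. Both were seen in 8.82%, 6.63%, 15.4% and 14.8% of neutrophil-like cells and in 8.10%, 17.4%, 12.7% and 7.77% of alveolar macrophage-like cells. The shares were 6.09%, 6.34%, 4.88% and 5.60% in monocyte/macrophage-like cells and 7.58%, 3.45%, 3.39% and 3.83% in dendritic cell-like cells. In tumor WT few cells entered: 17.4% was 4 of 23 alveolar macrophage-like cells (4.95% to 38.8%). Likewise 3.45% was 1 of 29 dendritic cell-like cells (0.0873% to 17.8%). No T-like or B-like cell held both in any library, with upper 95% limits of 5.28% to 8.41% in tumor and 0.267% to 0.576% in normal lung. The shares depend on those of each chain alone and do not show that the chains go together. A cell without a UMI at this depth may still carry the transcript.

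**Figure D4:**
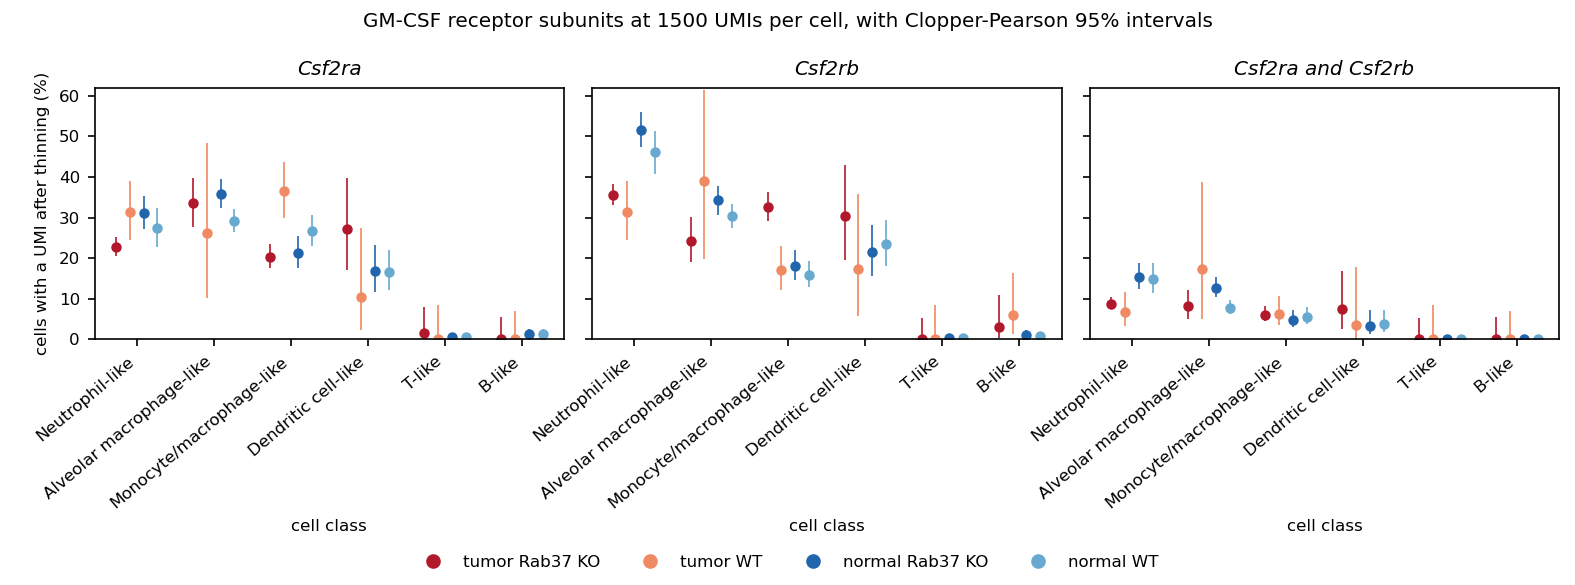
Percent of cells with a UMI of Csf2ra, of Csf2rb and of both after thinning to 1500 UMIs, by cell class and library, with Clopper-Pearson 95% intervals. Cells with both make up 3.39% to 17.4% of each of the 4 myeloid classes and 0% of T-like and B-like cells. The 17.4% is 4 of 23 alveolar macrophage-like cells in tumor WT.

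Setting Rab37 KO against WT in tumors, 25 gene and class pairs were measured, of which 10 were higher and 5 lower in Rab37 KO. Over all genes in all classes with at least 20 cells in both tumors, 21.3% of pairs were higher and 17.4% lower. Tumor libraries differed in many genes, and the count of the family is to be read against that.

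In neutrophil-like cells, Csf1 was 0.378 times as high in tumor Rab37 KO as in tumor WT (0.323 to 0.444), at 123 CPM in Rab37 KO and 324 CPM in WT. It was the only one of 6 measured family genes past 1.5-fold there, where 22.4% of all genes were higher and 18.5% lower. Csf3r had a ratio of 1.02 (0.941 to 1.11), Csf2rb of 1.25 and Csf2ra of 0.796. Most cells of the class fell into the same clusters in both tumors (a cluster led by Ngp, Saa3 and Lcn2, 76 cells, was in Rab37 KO only), and Csf1 was lower in Rab37 KO in both large ones: 130 CPM in Rab37 KO against 191 CPM in WT in the cluster led by Ifitm1, Lrg1 and Wfdc17 (532 and 104 cells; ratio 0.680, 0.507 to 0.928) and 162 CPM in Rab37 KO against 762 CPM in WT in the cluster led by Gm5483, Cxcl3 and Upp1 (624 and 78 cells; ratio 0.212, 0.174 to 0.261).

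In monocyte/macrophage-like cells, 3 of 6 measured genes were higher in tumor Rab37 KO and 1 was lower (all genes, 22.6% higher and 17.6% lower). Csf3r had a ratio of 4.37 (3.74 to 5.13), Csf1 of 2.74 (1.94 to 3.99) and Csf2rb of 1.81 (1.63 to 2.02). Csf2ra was lower, at 0.550 (0.507 to 0.598). Without the cells holding neutrophil RNA, the ratio of Csf3r was 2.50 and that of Csf1 was 1.59.

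The makeup of this class differed between the tumors, so the cluster led by C1qa, C1qc and C1qb, with 131 cells in Rab37 KO and 142 in WT, was read on its own. There Csf2ra was again lower, at 180 CPM in Rab37 KO and 311 CPM in WT (ratio 0.579, 0.518 to 0.648), and Csf1r was higher, at 346 CPM in Rab37 KO and 199 CPM in WT (ratio 1.74, 1.56 to 1.95). Csf2rb was alike, at 130 CPM in Rab37 KO and 134 CPM in WT (ratio 0.965, 0.829 to 1.12). The clusters of the class that lay mostly in the Rab37 KO tumor, led by Vcan, Arg1, Saa3, Ppbp, Ccl24 or Ms4a4c, had 229 to 413 CPM of it there. Csf3r had a ratio of 4.04 (3.28 to 5.03), beside neutrophil RNA in 33.6% of the cells in Rab37 KO and 9.15% in WT.

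Alveolar macrophage-like cells, 247 in tumor Rab37 KO and 25 in tumor WT, had 2 of 5 measured genes higher and 2 lower (all genes, 28.3% and 14.4%). Csf2rb was lower, with a ratio of 0.616 (0.494 to 0.777), and Csf2ra did not move past the threshold, at 1.03. The higher ones were Csf1r, at 1.60 with an interval that held 1 (0.896 to 3.14), and Csf3r, with 43 UMIs in Rab37 KO and 0 in WT, where the interval of the ratio also held 1 (lower limit 0.996). In dendritic cell-like cells, 67 and 29 in number, Csf2rb was higher in Rab37 KO at 1.93 (1.46 to 2.58) and Csf1r at 1.64 (1.07 to 2.59), where 16.8% of all genes were higher and 20.1% lower. These cells fell into different clusters: one cDC2-like cluster held 43 of the 67 cells in Rab37 KO and 3 of the 29 in WT. With clusters weighted alike the ratio of Csf2rb was 0.533. In T-like cells Csf1r had 22 UMIs in Rab37 KO and 2 in WT, with 11 of the 22 in 1 cell.

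In normal lung the same comparison moved little for whole classes. Of 45 measured pairs 3 were higher and 4 lower in Rab37 KO, where 8.64% of all gene and class pairs were higher and 6.61% lower. All 7 rested on few UMIs, 4 to 25 in the Rab37 KO library: Csf2rb and Csf3r in T-like cells and Csf1r in NK-like cells were higher, and Csf2 in NK-like and monocyte/macrophage-like cells, Csf1r in endothelial-like and Csf2rb in fibroblast-like cells were lower. No gene of the family passed 1.5-fold in neutrophil-like cells (all genes, 11.8% higher and 7.50% lower), alveolar macrophage-like cells (2.45% and 4.38%) or dendritic cell-like cells (8.94% and 6.24%), and in monocyte/macrophage-like cells only Csf2 did (5.53% and 5.26%). Single clusters moved more. In the C1qa cluster Csf1 had a ratio of 1.99 (1.25 to 3.26) and Csf3r of 1.62 (1.20 to 2.21). Csf2rb had 1.40 there, Csf1r 1.28, Csf2ra 0.983 and Csf2rb2 0.929. Neutrophil RNA was held by 17.3% of its cells in Rab37 KO and 12.2% in WT. In cDC1-like clusters Csf2rb went both ways, at 1.76 (led by Cst3), 2.08 (led by Ccl22) and 0.553 (led by Il12b). Csf1 in neutrophil-like cells had a ratio of 1.19 (1.06 to 1.34), on the other side of 1 from its ratio of 0.378 in tumors, and Csf3r of 0.965. Whether the genotype ratios differ between tumor and normal lung was not tested.

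**Figure D5:**
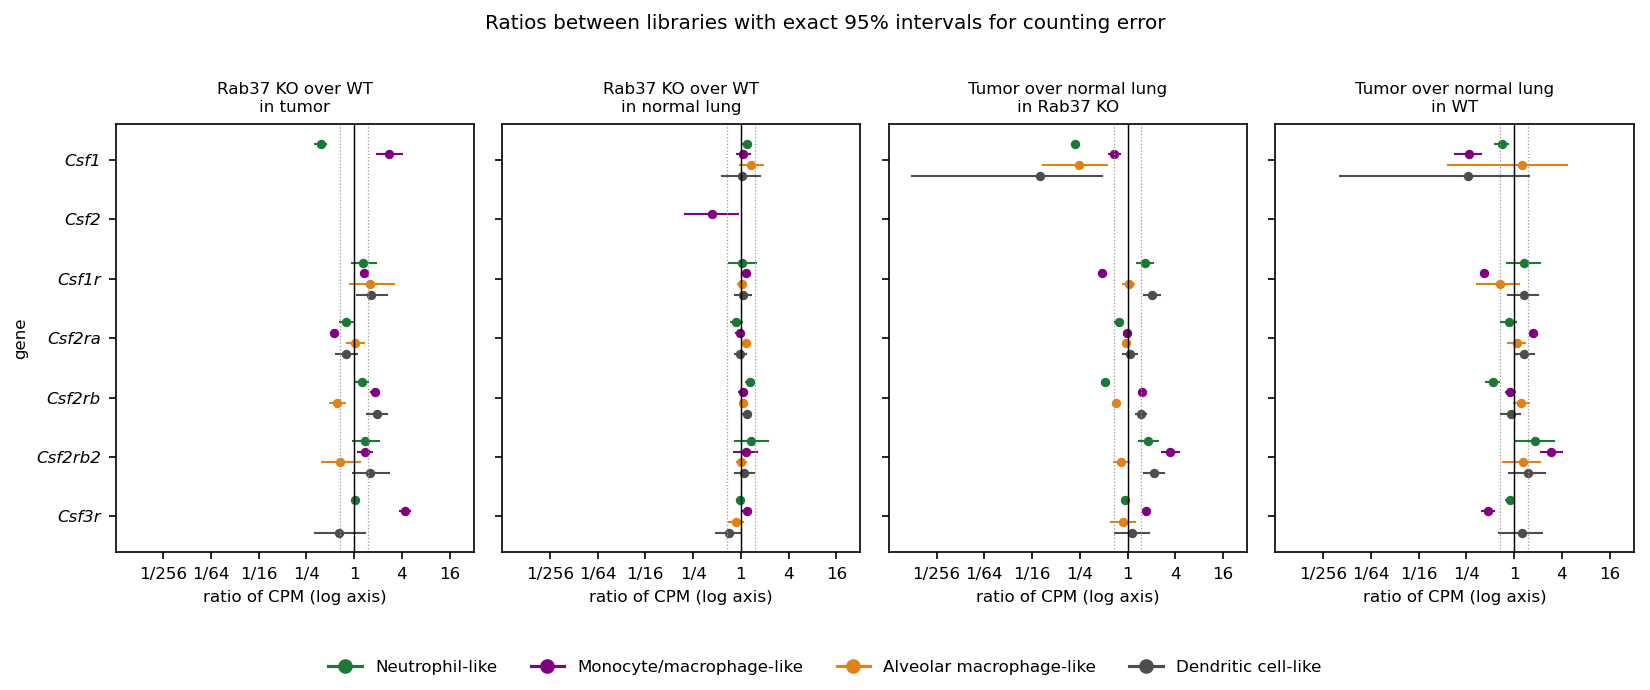
Ratio of CPM between libraries for each gene in 4 myeloid classes, on a log axis, with exact 95% intervals for counting error and dotted lines at 1.5-fold either way; pairs that were not measured or had 0 UMIs in a library are left out. In tumors, Csf1 of Rab37 KO over WT lies at 0.378 in neutrophil-like cells and Csf3r at 4.37 in monocyte/macrophage-like cells, while in normal lung both lie near 1.

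Tumor was set against normal lung within each genotype. Cells with sex-linked transcripts were mostly Y-linked in tumor Rab37 KO and Xist in tumor WT, while both normal libraries held many of each. Software was version 3.1.0 for tumor and 3.0.1 for normal lung. Tissue cannot be told apart from these differences. In Rab37 KO 13 of 31 pairs were higher and 6 lower in tumor, against 20.8% and 16.2% of all gene and class pairs. In WT 9 of 31 were higher and 9 lower, against 26.4% and 22.6%.

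In neutrophil-like cells, Csf1 in tumor was 0.219 times its level in normal lung in Rab37 KO (0.200 to 0.240) and 0.694 times in WT (0.581 to 0.826), of which the WT ratio did not reach 1.5-fold. Csf2rb was lower in tumor at 0.523 in Rab37 KO and 0.538 in WT, and Csf2rb2 was higher at 1.82 in Rab37 KO and 1.81 in WT. With clusters weighted alike the Csf2rb2 ratio was 1.96 in Rab37 KO and 0.876 in WT. Csf3r stayed near 1, at 0.930 and 0.878. Over all genes of the class 42.4% were higher and 10.6% lower in Rab37 KO, and 34.9% and 14.8% in WT. Tumor and normal neutrophil-like cells fell into different clusters: the tumor cells into those led by Ifitm1, Gm5483 and Camp, and the normal cells into one led by G0s2, Acod1 and Clec4d, where Csf1 had 585 CPM in Rab37 KO and 480 CPM in WT. The tumor cluster led by Ifitm1 had 130 CPM of Csf1 in Rab37 KO and 191 CPM in WT. That led by Gm5483 had 162 CPM in Rab37 KO and 762 CPM (631 to 912) in WT, above the normal cluster in WT only.

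In monocyte/macrophage-like cells Csf1r was lower in tumor by about the same factor in both genotypes, at 0.482 (0.457 to 0.507) in Rab37 KO and 0.420 (0.383 to 0.461) in WT. Csf2rb2 was higher in both, at 3.47 (2.73 to 4.48) and 2.92 (2.15 to 4.00). Over all genes 17.7% were higher and 19.9% lower in Rab37 KO, and 20.6% and 26.3% in WT. Both directions were also seen inside the C1qa cluster, where Csf1r had 346 CPM in tumor and 706 CPM in normal lung in Rab37 KO, and 199 CPM in tumor and 549 CPM in normal lung in WT. In the Plac8 monocyte cluster Csf1r was closer between tissues, at 426 CPM in tumor and 510 CPM in normal lung in Rab37 KO (ratio 0.835) and 291 CPM in tumor and 442 CPM in normal lung in WT (ratio 0.659). The nonclassical monocyte-like cluster led by Ace, Adgre4 and Cd300e went the other way in Rab37 KO. It had 848 CPM in tumor (22 cells) and 650 CPM in normal lung (ratio 1.31, 1.03 to 1.64). Nonclassical monocyte-like cells were 49 of 753 in the class in tumor Rab37 KO and 228 of 472 in normal Rab37 KO. They were 12 of 219 in tumor WT and 277 of 535 in normal WT, and the part of this makeup was not tested.

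Csf1 in monocyte/macrophage-like cells was lower in tumor in both genotypes. Inside the C1qa cluster its ratio was 0.507 (0.353 to 0.728) in Rab37 KO and 0.573 (0.319 to 1.03) in WT. Without the cells holding neutrophil RNA, the class had 16.1 CPM of Csf1 in tumor and 9.39 CPM in normal lung in Rab37 KO. In WT it had 10.2 CPM in tumor and 10.3 CPM in normal lung. Taken over the whole class, Csf2ra, Csf2rb and Csf3r did not move alike in the genotypes. Csf2ra had a tumor over normal ratio of 0.993 in Rab37 KO and 1.74 (1.57 to 1.93) in WT. Inside the C1qa cluster Csf2ra was above 1 in both, at 1.40 (1.19 to 1.65) in Rab37 KO and 2.38 (2.01 to 2.82) in WT. Of these, the Rab37 KO ratio did not reach 1.5-fold. Inside the Plac8 cluster Csf2ra had 0.974 (0.771 to 1.23) in Rab37 KO and 1.30 (0.917 to 1.80) in WT. Csf2rb had a class ratio of 1.51 in Rab37 KO and 0.889 in WT. Csf3r had 1.73 (1.59 to 1.88) in Rab37 KO and 0.471 (0.394 to 0.561) in WT, or 1.42 and 0.563 without the cells holding neutrophil RNA. Inside the C1qa cluster the ratio was 2.34 (1.93 to 2.85) in Rab37 KO and 0.938 (0.684 to 1.29) in WT, and inside the Plac8 cluster 1.03 (0.707 to 1.49) in Rab37 KO and 0.741 (0.369 to 1.36) in WT. With clusters weighted alike it was 1.82 in Rab37 KO and 1.02 in WT. In alveolar macrophage-like cells the GM-CSF receptor chains stayed within 1.5-fold in both genotypes, with Csf2ra at 0.970 and 1.08 and Csf2rb at 0.713 and 1.23. Over all genes of that class 9.54% were higher and 6.80% lower in tumor in Rab37 KO, and 18.7% and 30.6% in WT.

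Genes downstream of these receptors were read from lists of signalling genes, Stat5 target genes and myeloid transcription factors. The lists overlap, so their counts are not separate results. Cish and Socs2 are in both the signalling and the Stat5 list, and Bhlhe40 is in both the Stat5 and the transcription factor list. Of 25 signalling genes (kinases, adaptors, Stat factors and their inhibitors) measured in monocyte/macrophage-like cells, 8 were higher and 0 lower in tumor Rab37 KO than in tumor WT, where 22.6% of all genes were higher and 17.6% lower. The median log2 ratio was 0.26, against 0.04 over all genes. In neutrophil-like cells 3 of 25 were higher and 2 lower, where 22.4% of all genes were higher and 18.5% lower, with a median of -0.05 against -0.03. Of the target genes of Stat5, 5 of 9 were higher and 0 lower in monocyte/macrophage-like cells, with a median of 0.64, and 5 of 8 were higher and 0 lower in neutrophil-like cells, with a median of 0.68, against the same shares of all genes (22.6% and 17.6%, and 22.4% and 18.5%). For Rab37 KO over WT in normal lung, 0 of 9 were higher and 1 lower in monocyte/macrophage-like cells (median -0.09, all genes 5.53% and 5.26%). Neutrophil-like cells there had 1 of 7 higher and 0 lower (median -0.22, all genes 11.8% and 7.50%). Against normal lung, tumor monocyte/macrophage-like cells had 4 of 9 higher and 1 lower in Rab37 KO (median 0.20, all genes 17.7% and 19.9%). In WT 2 were higher and 4 lower (median -0.58, all genes 20.6% and 26.3%).

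Cish, an inhibitor that Stat5 itself induces, had 64.3 CPM in tumor Rab37 KO and 27.6 CPM in tumor WT neutrophil-like cells (ratio 2.33, 1.42 to 4.10) and 54.6 CPM in tumor Rab37 KO and 17.9 CPM in tumor WT monocyte/macrophage-like cells (ratio 3.06, 2.28 to 4.19). Osm, a cytokine of the IL-6 family, had 313 CPM in tumor Rab37 KO and 111 CPM in tumor WT monocyte/macrophage-like cells (ratio 2.82). Bcl2l1, a survival gene, had 78.8 CPM in tumor Rab37 KO and 29.8 CPM in tumor WT (ratio 2.65) in the same class. Both genes were higher still in neutrophil-like cells, with Osm at 738 CPM in tumor Rab37 KO and 459 CPM in tumor WT, and Bcl2l1 at 121 CPM in tumor Rab37 KO and 72.5 CPM in tumor WT. Neutrophil RNA was held by 37.5% of monocyte/macrophage-like cells in tumor Rab37 KO and 13.2% in tumor WT (summed level of its 9 genes 19993 and 8927 CPM), and the clusters of the class differed between the tumors. The part of either in the list values of this class was not tested. Stat3 was higher there too, at 245 CPM in tumor Rab37 KO and 121 CPM in tumor WT (ratio 2.02). Socs1, a brake on Jak kinases, was lower in neutrophil-like cells, at 29.5 CPM in tumor Rab37 KO and 55.2 CPM in tumor WT (ratio 0.534). In alveolar macrophage-like cells Pparg, a factor on which their identity depends, had 232 CPM in tumor Rab37 KO and 92.6 CPM in tumor WT (ratio 2.50, 1.68 to 3.89).

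Of 18 myeloid transcription factors, 8 of 17 measured were higher and 1 lower in the monocyte/macrophage-like class of tumor Rab37 KO against tumor WT, and 7 of 16 were higher and 0 lower in neutrophil-like cells, again against 22.6% and 17.6%, and 22.4% and 18.5%, of all genes. Egr1, an early response factor, had 979 CPM in tumor Rab37 KO and 267 CPM in tumor WT monocyte/macrophage-like cells (ratio 3.67), and Cebpa, a factor of myeloid differentiation, was lower, at 59.7 CPM in tumor Rab37 KO and 136 CPM in tumor WT (ratio 0.440). In normal lung the same signalling list had 1 of 25 higher and 1 lower in monocyte/macrophage-like cells (all genes, 5.53% and 5.26%) and 0 of 21 higher and 3 lower in neutrophil-like cells (all genes, 11.8% and 7.50%). The one higher was Socs3, a brake on signalling by Csf3r, which had 293 CPM in Rab37 KO and 195 CPM in WT.

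Against normal lung, the signalling list in monocyte/macrophage-like cells had 3 higher and 4 lower of 25 in Rab37 KO tumor (median log2 ratio -0.26, all genes -0.05) and 2 higher and 11 lower in WT tumor (median -0.50, all genes -0.08). Over all genes 17.7% were higher and 19.9% lower in Rab37 KO, and 20.6% and 26.3% in WT. Stat5b was lower in both, at 34.2 CPM in tumor and 81.2 CPM in normal lung in Rab37 KO (ratio 0.422), and 21.6 CPM in tumor and 59.6 CPM in normal lung in WT (ratio 0.362). Both comparisons of tumor with normal lung, and both of Rab37 KO with WT, use the same 4 libraries and so are not independent.

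Relatives of the family had their own sources. Csf3, which encodes G-CSF, had 14.9, 8.63, 5.67 and 13.2 CPM in neutrophil-like cells, from 125, 5, 9 and 12 UMIs in the tumor Rab37 KO, tumor WT, normal Rab37 KO and normal WT libraries. Il34, the other ligand of Csf1r, had 6.74 CPM in Rab37 KO and 28.1 CPM in WT fibroblast-like cells of normal lung. Both values rested on few UMIs of the gene, as the class held 741784 and 356488 UMIs in all. Kitl, the ligand of the related receptor Kit, had 565 CPM in Rab37 KO and 242 CPM in WT endothelial-like cells of normal lung.

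Over 36 class and library sums of at least 20 cells, the genes most like each member in log2(CPM + 10) were listed from 7031 candidates by Pearson's r. For Csf1 they were Rnf11 (0.911), G0s2 (0.891) and Ppp1r2 (0.888), and for Csf1r Gpr141 (0.890) and Cd300c2 (0.851). For Csf2 they were Ccdc184 (0.958), Il5 (0.957) and Il13 (0.956), and for Csf3r Trem3 (0.972), Mmp9 (0.965) and Cxcr2 (0.962). Csf2ra and Csf2rb were each among the most like of the other (0.949), and Csf2rb2 was most like Csf2ra (0.910) and Csf2rb (0.909). The sums share libraries, depth and class markers (G0s2, Il5, Il13, Mmp9 and Cxcr2 named classes), so these values are descriptions only.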

How the data were processed

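Live CD45+ cells had been processed on the 10x Genomics 3′ platform, per the labels' protocols. What the authors deposited are raw UMI counts, 1 matrix per library, with no normalization. Reads had been mapped to mm10, per the submitters' processing notes. The software was version 3.1.0 for tumor and 3.0.1 for normal lung, per the file headers; no aligner is named in the sources used here.

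From 3065, 674, 5063 and 5594 barcodes (tumor Rab37 KO, tumor WT, normal Rab37 KO, normal WT), those under 200 genes or over 10% mitochondrial UMIs were dropped. Scrublet then removed 4, 3, 80 and 179 doublets (0.147%, 0.464%, 1.69% and 3.41%). The cells left held 30053500, 5183771, 33771328 and 34369992 UMIs.

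All libraries were clustered together with scanpy 1.11.5 under Python 3.11.15 (2000 variable genes without the members and their relatives, 30 components, 15 neighbours, Leiden resolution 1.0, seed 1). A cluster took the class with the highest marker score (mean log2 difference with a pseudocount of 10 CPM), provided that the score was 0.5 or more and that 3 markers or more were detected, each in 10% of its cells. Of 30 first clusters, 10 were clustered again, giving 75. The rules for clustering again and for scores were settled after clusters had been inspected. Members and gene lists were chosen with earlier results of these data known.

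Counts were summed per class and library. Intervals are exact 95% intervals (Poisson, conditional binomial, Clopper-Pearson) from counting alone; the interval script was tested on simulated data. Levels are shown for classes with at least 20 cells. Shares of cells with a UMI were taken after thinning to 1500 UMIs, leaving out shallower cells. Named were all 7 members, up to 3 genes of each list by size of ratio, given 50 CPM in either library, and the 3 genes most like each member. A result of these rules that concerned 1 gene is not reported here. Gene positions are from GENCODE vM21 and promoter sequences from RefSeq (GRCm38.p6). Alternatives covered doublets, quality limits, per-cell classes, resolution 0.5, weighting, UMI minimum, neutrophil RNA, single large cells and sex-linked transcripts.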

Additional observations from a re-analysis of the deposited data

Results flagged for a closer look

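In monocyte/macrophage-like cells the ratio of Csf3r in tumor over normal lung lay on opposite sides of 1 in the genotypes, at 1.73 in Rab37 KO and 0.471 in WT. With clusters weighted alike the WT ratio was 1.02, and inside the C1qa cluster it was 0.938 (0.684 to 1.29). The makeup of the class differed by tissue, with nonclassical monocyte-like cells 12 of 219 in tumor WT and 277 of 535 in normal WT. The difference between these ratios was not tested, since each rests on 1 library per group. Beside them stands the share of cells holding neutrophil RNA, 37.5% in tumor Rab37 KO, 13.2% in tumor WT, 19.5% in normal Rab37 KO and 18.9% in normal WT; its part in the ratios was not tested.

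A signal lay outside the named classes. Unnamed clusters led by carcinoma or mesenchymal genes, with 44 cells in tumor Rab37 KO and 12 in tumor WT, held Csf1 at 41.5 CPM (35.1 to 48.7) and 48.3 CPM (32.6 to 68.9), from 150 and 30 UMIs. Their median depths were 80322 and 43012 UMIs. They held 1 and 0 UMIs of Csf2.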

How the results depend on the processing

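The class that led each gene in each library, 28 cases by CPM, was kept in 25 to 28 under the alternatives run, and by share of cells in 21 with thinning to 1000 UMIs and in 19 with none. Of 525 alternative ratios for called pairs with UMIs in both libraries, 451 kept direction and size, 57 moved outside the counting interval and 17 changed direction. With doublets kept, normal lung had 5 pairs higher and 8 lower in Rab37 KO. With a class given to each cell alone, tumors had 3 lower, normal lung 7 higher and 14 lower, and tumor over normal in Rab37 KO 22 higher and 12 lower. Resolution 0.5 gave 3 lower in tumors and 10 lower for tumor over normal in Rab37 KO. Weighting cells alike gave 3 lower in tumors and 7 lower in normal lung. A minimum of 10 UMIs gave 7 higher in normal lung, and leaving out the largest cell 3 lower in tumors. Without cells holding neutrophil RNA, normal lung had 0 higher and 2 lower. Weighting clusters alike gave 3 higher in tumors, 8 lower in normal lung, 8 higher for tumor over normal in Rab37 KO and 2 lower in WT. Cells with Xist alone gave 1 higher in normal lung and 4 lower for tumor over normal in WT, and Y-linked cells alone 0 lower in normal lung.

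These ratios changed direction. Class given per cell: for tumor over normal, Csf1 in dendritic cell-like cells 1.03 (Rab37 KO) and 1.19 (WT), and in Rab37 KO Csf2ra in B-like 3.68 and Csf2 in T-like cells 0.825; for Rab37 KO over WT in tumor, Csf3r in dendritic cell-like cells 1.28. Clusters weighted alike: in dendritic cell-like cells of tumor, Csf2rb 0.533 and Csf2rb2 0.474 (Rab37 KO over WT) and Csf2rb2 0.328 (tumor over normal, Rab37 KO); Csf1r in neutrophil-like cells 0.0818 (Rab37 KO) and Csf2rb2 0.876 (WT), and Csf3r in monocyte/macrophage-like cells 1.02 (WT), all tumor over normal; Csf2rb in fibroblast-like cells 1.11 (Rab37 KO over WT). Csf1r in T-like cells (WT, tumor over normal) was 0.812 with cells weighted alike. With doublets kept, Csf2 in T-like 0.858 and Csf2ra in B-like cells 1.51 (Rab37 KO, tumor over normal) and Csf2rb in T-like cells 0.711 (Rab37 KO over WT, normal). At resolution 0.5, Csf2 in T-like cells was 0.684. The causes were not tested.

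No paired analysis was possible because each group had 1 library, nor could a library be left out. Values from Y-linked cells alone could not be had where tumor WT entered, since it held none; cells with Xist alone gave values in few tumor classes. The tumor WT library, with 644 cells, limits the precision of all its comparisons, and Csf2 in tumors rests on 15 and 10 UMIs.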

Other observations

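Csf3, the ligand of Csf3r, was also found in unnamed clusters of the tumor Rab37 KO library, with 74 UMIs (17.8 CPM). In monocyte/macrophage-like cells it had 9.18 CPM in tumor Rab37 KO, 1.86 CPM in tumor WT, 0.504 CPM in normal Rab37 KO and 0.243 CPM in normal WT. Kit, the receptor for stem cell factor, was held by ILC2-like cells of normal lung, at 257 CPM in Rab37 KO and 194 CPM in WT, and by dendritic cell-like cells at 114, 107, 66.7 and 68.8 CPM in the tumor Rab37 KO, tumor WT, normal Rab37 KO and normal WT libraries. Flt3, a receptor that sustains dendritic cells and is a marker of the cDC2-like class, had 61.5, 69.1, 94.1 and 70.8 CPM in dendritic cell-like cells of the same libraries.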
